A study of Mus musculus with 3 samples.

Results

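The muscarinic acetylcholine receptor genes *Chrm1* to *Chrm5* were followed through neurons of the adult mouse basolateral amygdala (BLA). The 5 genes were picked by symbol among the 32285 genes counted, and were described in 1759 neuronal nuclei of the 8380 barcodes in replicates 2 and 3, the libraries used here of 3 in the series. *Chrm2* stood at 318 and 266 CPM (UMIs of a gene per 1000000 UMIs) in GABAergic nuclei with *Foxp2* and no *Rarb*, against 51.9 and 69.0 CPM in those with both. Among the populations gated by these genes *Chrm3* was highest in GABAergic nuclei with little *Foxp2*, *Chrm1* was higher in glutamatergic than in GABAergic nuclei, and *Chrm4* and *Chrm5* were almost without UMIs.

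Single-nucleus RNA-seq measured BLA tissue of wild-type C57BL/6NRj mice at postnatal day 56, with no treatment, and each dataset pooled both hemispheres of 4 male brains from a litter. The sources used here do not settle whether the libraries came from separate pools, so p-values speak at most to the spread between 2 libraries, which may be technical. Because the test used below (edgeR) estimates a gene's spread partly from other genes, p-values can be small where the gene's libraries differ widely. Glutamatergic nuclei (484 in replicate 2, 210 in replicate 3) had at least 2 UMIs of *Slc17a7* and *Slc17a6*, the vesicular glutamate transporters, and none of *Gad1* or *Gad2*, the GABA-synthesising enzymes. GABAergic nuclei (388 and 677) had the opposite, and in both classes the astrocyte transporters *Slc1a2* and *Slc1a3* made up less than 0.1% of UMIs. GABAergic nuclei with at least 3 *Foxp2* UMIs were divided into those with 0 UMIs of *Rarb* (73 and 151) and those with at least 2 (59 and 160). The 21 and 40 nuclei with 1 *Rarb* UMI were kept apart, and the 235 and 326 nuclei with fewer than 3 *Foxp2* UMIs are called low-*Foxp2* GABAergic nuclei. In the study, *Foxp2* marked intercalated cells, the small clusters of inhibitory neurons around the BLA, and *Rarb* the amygdalostriatal area. Nuclei with *Foxp2* alone and with both genes alike held *Meis2* in 97.3% to 100% and *Tshz1* in 84.4% to 93.2%, and the second population had *Drd1* in 20.3% and 21.9% of nuclei against 9.59% and 5.30% in the first. Among markers that the gates did not use, the long noncoding gene *Dlx6os1* of GABAergic neurons was in 66.2% and 71.6% of GABAergic and in 3.51% and 6.19% of glutamatergic nuclei. *Ppp1r1b*, a striatal projection neuron marker, was in at most 6.25% of nuclei of either *Foxp2* population. The study stated that its dataset lacked this gene, and proposed that the assay may miss some scarce RNAs.

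Muscarinic receptors are G protein-coupled receptors for acetylcholine, which reaches the BLA in dense fibres from the basal forebrain. The M1, M3 and M5 receptors, encoded by *Chrm1*, *Chrm3* and *Chrm5*, act through Gq and phospholipase C, and in neurons M1 receptor activation closes the M-current potassium channels. The M2 and M4 receptors, encoded by *Chrm2* and *Chrm4*, act through Gi, lower cAMP and open inwardly rectifying potassium channels. Principal neurons of the amygdala and cortex are known for M1, striatal projection neurons for M1 and M4, and M2 often serves as an autoreceptor or on interneurons.

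*Chrm2* and *Chrm3* gave the largest differences between the *Foxp2* populations, so 300 bases around a transcript start of each (250 before, 50 after, from the RefSeq promoters on GRCm38.p6) are shown. The outermost RefSeq 5′ ends differ from these starts, at 36387991 for *Chrm2*, inside its window, and at 10361062 for *Chrm3*, just outside. They were searched on both strands for a forkhead core (TGTTTAC), the kind of site bound by proteins like Foxp2, and a nuclear receptor half-site (AGGTCA), the kind bound by retinoic acid receptors such as Rarb. Neither window holds one, so no letter is in capitals.
Chrm2, chr6:36387834-36388133, plus strand: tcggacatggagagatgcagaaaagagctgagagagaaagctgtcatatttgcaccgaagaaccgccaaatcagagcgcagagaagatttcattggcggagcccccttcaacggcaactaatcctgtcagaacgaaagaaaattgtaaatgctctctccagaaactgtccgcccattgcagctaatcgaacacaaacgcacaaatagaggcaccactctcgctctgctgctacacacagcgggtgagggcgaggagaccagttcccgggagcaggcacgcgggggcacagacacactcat
Chrm3, chr13:10360754-10361053, minus strand: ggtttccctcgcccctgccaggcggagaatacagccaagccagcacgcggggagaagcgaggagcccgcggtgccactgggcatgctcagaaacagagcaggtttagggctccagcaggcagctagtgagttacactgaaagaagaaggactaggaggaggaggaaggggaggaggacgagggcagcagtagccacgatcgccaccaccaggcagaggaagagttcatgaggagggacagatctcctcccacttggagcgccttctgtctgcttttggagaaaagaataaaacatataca
The forkhead core was in 3.65% and the half-site in 16.3% of the 32851 RefSeq promoters of that length. The windows held 16 and 11 CG dinucleotides, against a median of 7 over all promoters. Of the other members, *Chrm4* and *Chrm5* had windows too, with 30 and 3 CG dinucleotides, and the *Chrm5* window alone held a half-site. The outermost RefSeq 5′ end of *Chrm5*, at 112536361, lies far outside its window (112480768 to 112481067).

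The 5 genes differ widely in extent, which matters because nuclear RNA holds introns. On GRCm38, *Chrm3* (ENSMUSG00000046159) spans 485 kb of chromosome 13 (9875486 to 10360847, minus strand), *Chrm2* (ENSMUSG00000045613) 140 kb of chromosome 6 (36388084 to 36528414, plus strand) and *Chrm1* (ENSMUSG00000032773) 19.8 kb of chromosome 19 (8663789 to 8683587, plus strand). *Chrm4* (ENSMUSG00000040495; chromosome 2, 91927249 to 91928688, plus strand) and *Chrm5* (ENSMUSG00000074939; chromosome 2, 112479171 to 112480769, minus strand) are models of 1 exon, each with 3 exonic bases beyond the coding sequence, and therefore nearly without UTR. *Chrm3* also encloses the sense intronic gene *Gm47405* (293 UMIs in both libraries together), whose reads lie on the same strand, while *Chrm2* overlaps *9330158H04Rik* on the opposite strand.

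*Chrm4* gave 7 UMIs in the 8380 barcodes of both libraries (4 and 3), and *Chrm5* gave 3 (1 and 2). *Chrm4* was listed in 2 of 388 and 2 of 677 GABAergic nuclei, and in 1 of 484 and 0 of 210 glutamatergic nuclei, where a count of 0 allows a share of up to 1.43%. In *Foxp2* nuclei with *Rarb*, *Chrm4* had 1 UMI in 59 nuclei and 0 in 160, which allows up to 1.88% of nuclei with a UMI. Both genes fell below the filter on low counts in all comparisons, so 3 of the 5 members could be tested. RefSeq extends *Chrm4* by 1147 bases and *Chrm5* by 438 bases past the 3′ end of the models above, and the assay reads transcript ends. RefSeq also begins these genes 5060 and 55592 bases before the 5′ ends of the models, and spans 7.65 and 57.6 kb. The part of these short models in the low counts was not tested. The models above are from GENCODE vM21, and whether the reference used for counting held the same ones was not checked. The counts limit the UMIs assigned to the models of that reference, not the RNA of the genes.

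The Gq-coupled member *Chrm1* had the lowest CPM of the 3 measured genes in both classes, and no nucleus of either held more than 7 of its UMIs. In glutamatergic nuclei it stood at 45.2 and 48.2 CPM in replicates 2 and 3, in GABAergic nuclei at 22.4 and 31.1 CPM. The libraries of the classes did not overlap. It was found in 48.6% and 45.2% of glutamatergic nuclei (95% exact intervals 44.0% to 53.1% and 38.4% to 52.2%) and in 17.5% and 20.7% of GABAergic nuclei (13.9% to 21.7% and 17.7% to 23.9%). Glutamatergic nuclei were also deeper, with medians of 15525.5 and 13077 UMIs against 7646 and 7246. After each nucleus was thinned at random to 3700 UMIs, *Chrm1* was in 17.1% and 16.3% of glutamatergic and 5.04% and 10.5% of GABAergic nuclei. The order held at equal depth, but the intervals overlapped in replicate 3 (11.4% to 22.3% against 8.15% to 13.2%). In GABAergic *Foxp2* nuclei with *Rarb* the thinned shares were 6.90% and 17.6%, the latter not below the glutamatergic share of that library.

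*Chrm3*, the other Gq-coupled member measured, had the highest CPM but also the longest gene. It stood at 220 and 408 CPM in glutamatergic nuclei and at 443 and 421 CPM in GABAergic nuclei. The glutamatergic libraries differed more from each other than replicate 3 did from either GABAergic library. Nuclei with *Slc17a6* and no *Slc17a7* UMI carried part of that gap: 21 such nuclei gave 36.4% of the glutamatergic *Chrm3* UMIs in replicate 3 (1808 CPM), 28 such nuclei 7.25% in replicate 2 (384 CPM). In the remaining glutamatergic nuclei *Chrm3* was at 213 and 283 CPM. A few nuclei held much of it: the top 10% of glutamatergic nuclei had 62.1% and 58.0% of its UMIs, close to the 60.02% and 57.5% for *Chrm2*, against 41.3% and 41.2% for *Chrm1*.

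The Gi-coupled *Chrm2* was at 102 and 110 CPM in glutamatergic and 132 and 118 CPM in GABAergic nuclei. The libraries of the classes did not overlap, but the gap between them was small. It was in 42.1% and 40.0% of glutamatergic and in 25.5% and 28.4% of GABAergic nuclei, and after thinning in 23.9% and 20.9% against 20.5% and 19.1%. The intervals of the thinned shares overlapped in both libraries. Among GABAergic populations its levels lay much further apart.

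**Figure D1:**
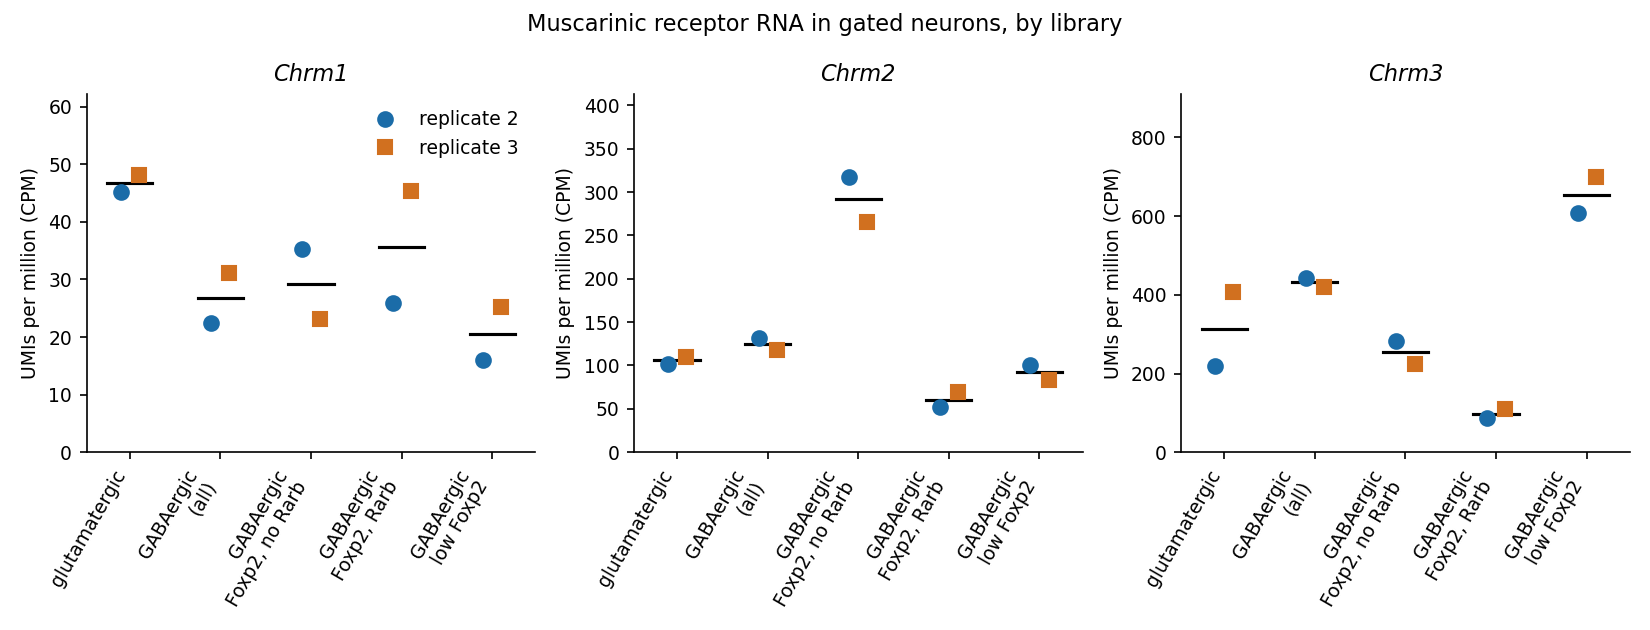
CPM of *Chrm1*, *Chrm2* and *Chrm3* (vertical axes, linear and starting at 0) in 5 gated populations, of which all GABAergic nuclei include the 3 to its right. Circles are replicate 2, squares replicate 3 and lines the mean of both. *Chrm2* is highest in *Foxp2* nuclei without *Rarb* (318 and 266 CPM), and *Chrm3* in low-*Foxp2* nuclei (609 and 699 CPM) and lowest in *Foxp2* nuclei with *Rarb* (86.5 and 109 CPM).

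Between glutamatergic and GABAergic nuclei, *Chrm1* was the member that passed the test, with a log2 fold change of 0.79 ± 0.22 (SE) and an adjusted p of 0.0225 (edgeR quasi-likelihood test on sums per population and library, Benjamini-Hochberg over 12866 genes), 1.73-fold higher in glutamatergic nuclei. That is 1 of 3 members tested, where 16.4% of all genes tested were called (2108 genes), 7.73% higher in glutamatergic nuclei, and 24.9% with the library as a block (3207 genes). *Chrm2* differed by -0.20 ± 0.17 (95% confidence interval -0.57 to 0.16, adjusted p = 0.532, edgeR) and *Chrm3* by -0.40 ± 0.29 (interval -1.03 to 0.23, adjusted p = 0.463, edgeR). The *Chrm1* call was lost with DESeq2 (adjusted p = 0.0715), without the limit on astrocyte transporters (edgeR, 0.0613) and with the 42 glutamatergic and 7 GABAergic nuclei of replicate 1 added (edgeR, 0.453), where 66 genes were called in all. Its fold was positive in each of these fits and in replicates 2 and 3, whereas in replicate 1 alone *Chrm1* was at 72.0 CPM in GABAergic (4 UMIs) and 50.4 CPM in glutamatergic nuclei (17 UMIs).

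Per kilobase of gene, the order of the mean levels in glutamatergic nuclei was the reverse of that in CPM. There *Chrm1* had 2.36 ± 0.106 CPM per kb (SD, n = 2 libraries), *Chrm2* 0.755 ± 0.0378 and *Chrm3* 0.647 ± 0.274, the last 2 within their spread. In replicate 3 *Chrm3* lay above *Chrm2* in these nuclei, at 0.840 against 0.782 CPM per kb. In *Foxp2* nuclei without *Rarb* the per-kilobase level of *Chrm2*, 2.08 ± 0.262, exceeded that of *Chrm1*, 1.47 ± 0.437, and of *Chrm3*, 0.523 ± 0.0835. In *Foxp2* nuclei with *Rarb*, *Chrm1* led at 1.80 ± 0.692 per kb against 0.431 ± 0.0860 for *Chrm2* and 0.202 ± 0.0330 for *Chrm3*. In low-*Foxp2* nuclei *Chrm3* had 1.35 ± 0.131 CPM per kb and *Chrm1* 1.04 ± 0.329, within their spread. These levels divide by the whole gene span, since the share of intronic UMIs is not in the counts.

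The *Foxp2* populations differed from each other in 2 receptors and in the same direction. *Chrm2*, the Gi-coupled receptor, was in 60.3% and 53.0% of *Foxp2* nuclei without *Rarb* and in 22.03% and 22.5% of those with it. After thinning the shares were 55.9% and 43.8% against 10.3% and 12.4%. *Chrm3*, coupled to Gq, stood at 282 and 225 CPM without *Rarb* and at 86.5 and 109 CPM with it, in 39.7% and 35.1% of nuclei against 23.7% and 22.5%. Its thinned shares were 30.9% and 28.1% against 19.0% and 15.7%, and their intervals overlapped in both libraries. Few nuclei carried the *Chrm3* level: the top 10% of nuclei without *Rarb* held 79.7% and 73.1% of its UMIs. For *Chrm2*, found in more of these nuclei, the top 10% held 44.9% and 57.2%. *Chrm1* was at 35.3 and 23.1 CPM without *Rarb* and at 26.0 and 45.3 CPM with it, ranges that overlap and run in opposite order in the libraries.

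In the test, *Chrm2* was 4.60-fold higher without *Rarb* (log2 fold change 2.20 ± 0.21, adjusted p = 0.000216, edgeR) and *Chrm3* 2.51-fold higher (1.33 ± 0.24, adjusted p = 0.00792, edgeR). Of 9624 genes tested 1.69% were called (163), 0.759% in this direction, against 2 of the 3 members. With the library as a block 3.8% were called (366). *Chrm1* differed by -0.46 ± 0.37 (interval -1.25 to 0.33, adjusted p = 0.842, edgeR). Both calls held under all 8 other tests, with adjusted p-values up to 0.00379 for *Chrm2* and 0.0231 for *Chrm3*.

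Nuclei just below the *Rarb* threshold, with 1 UMI of it, had *Chrm2* at 59.6 and 83.9 CPM and *Chrm3* at 228 and 204 CPM. For *Chrm2* these values lie near those of the nuclei with *Rarb*, and for *Chrm3* near those of the nuclei without it. *Chrm1* was at 37.9 and 47.4 CPM in them. At the *Foxp2* threshold, nuclei with 3 *Foxp2* UMIs (6 and 7) had *Chrm3* at 585 and 544 CPM and nuclei with 2 (6 and 11) at 473 and 653 CPM, both closer to the low-*Foxp2* level. At the class threshold, glutamatergic nuclei with 2 transporter UMIs had *Chrm1* at 35.6 and 46.6 CPM, and nuclei with 1 had 41.5 and 48.7. GABAergic nuclei with 2 had 23.4 and 39.6 CPM and those with 1 had 35.3 and 30.4 CPM, so the ranges of the classes overlapped at the threshold, although within each library the glutamatergic value was higher.

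**Figure D2:**
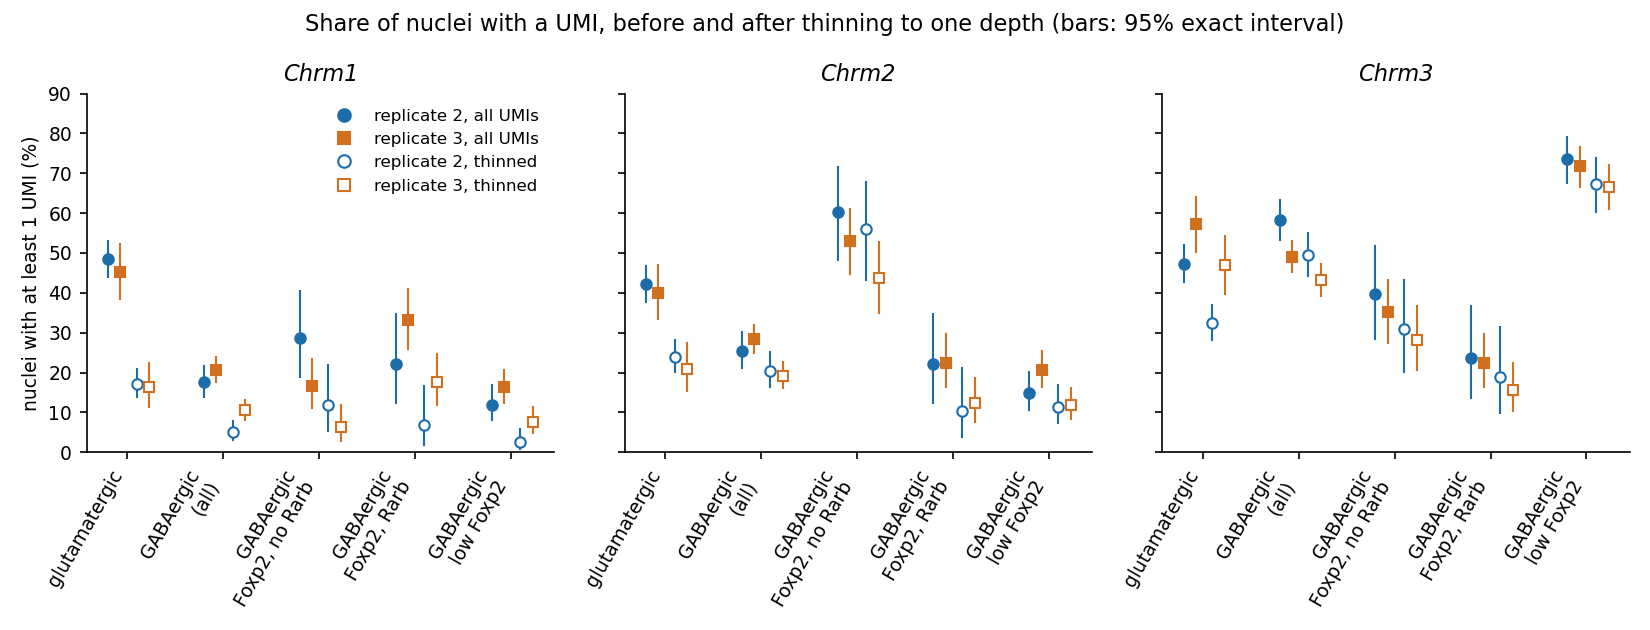
Share of nuclei with at least 1 UMI of each gene (vertical axis, percent) in the same 5 populations. Filled symbols use all UMIs, open symbols nuclei thinned to 3700 UMIs; circles are replicate 2, squares replicate 3, and bars 95% exact intervals that cover counting error only. Thinning lowers *Chrm1* in glutamatergic nuclei from 48.6% and 45.2% to 17.1% and 16.3%, and leaves *Chrm2* in *Foxp2* nuclei without *Rarb* at 55.9% and 43.8%.

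Against low-*Foxp2* GABAergic nuclei, *Foxp2* nuclei without *Rarb* had more *Chrm2* and less *Chrm3*. *Chrm2* was at 101 and 83.0 CPM in low-*Foxp2* nuclei, and it was 3.23-fold higher in *Foxp2* nuclei without *Rarb* (log2 fold change 1.69 ± 0.19, adjusted p = 2.83e-05, edgeR). *Chrm3* was at 609 and 699 CPM in low-*Foxp2* nuclei, in 73.6% and 71.8% of them, and it was 2.56-fold lower in *Foxp2* nuclei without *Rarb* (log2 fold change -1.36 ± 0.22, adjusted p = 0.000588, edgeR). Here 10.3% of 9624 genes were called (995), 4.98% higher and 5.36% lower in the *Foxp2* nuclei. *Chrm1* differed by 0.44 ± 0.36 (interval -0.33 to 1.21, adjusted p = 0.585, edgeR).

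*Foxp2* nuclei with *Rarb*, set against the same low-*Foxp2* nuclei, had 6.44-fold less *Chrm3* (log2 fold change -2.69 ± 0.24, adjusted p = 2.30e-06, edgeR). For *Chrm2* the difference was -0.51 ± 0.21 (interval -0.97 to -0.06) and did not pass over all genes (adjusted p = 0.161, edgeR), nor did *Chrm1* at 0.90 ± 0.34 (interval 0.18 to 1.62, adjusted p = 0.113, edgeR). Of the genes tested 11.3% were called (1091), 5.67% lower in the *Foxp2* nuclei, and 17.2% with the library as a block (1658). Both comparisons use the low-*Foxp2* sums, so their values are not independent. *Chrm1* passed when genes of low counts were kept (adjusted p = 0.0371, edgeR), and with DESeq2 its adjusted p was 0.479.

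Nuclei without a UMI of any of the 5 receptors were also counted, without thinning. Their share depends on the single-gene shares given above, so it is no separate result. In *Foxp2* nuclei with *Rarb*, 52.5% and 41.3% had no UMI of any member, against 15.1% and 27.2% without *Rarb*, 20.9% and 18.4% of low-*Foxp2* nuclei and 16.9% and 18.6% of the deeper glutamatergic nuclei. Nuclei with UMIs of 3 members made up 9.09% and 13.8% of glutamatergic and 2.84% and 2.95% of GABAergic nuclei. Pairs of members were counted against what their own shares gave among nuclei of like depth, in depth groups of 50 nuclei (1 group each for the *Foxp2* populations of replicate 2, which were thus not matched for depth). The ratio of observed to expected nuclei was 1.07 and 1.11 for *Chrm1* with *Chrm2* in glutamatergic nuclei. For *Chrm2* with *Chrm3* it was 0.767 and 0.876 in GABAergic nuclei, a class that joins populations high in one gene or the other. Within those populations it was 0.801 and 0.902 (*Foxp2* nuclei without *Rarb*) and 0.879 and 0.917 (low-*Foxp2* nuclei). In *Foxp2* nuclei with *Rarb* the *Chrm2* and *Chrm3* ratio was 1.62 and 1.44, from 5 and 13 nuclei, and 1.29 in both libraries in groups of 25. In *Foxp2* nuclei without *Rarb* the *Chrm1* and *Chrm2* ratio was 1.26 and 1.23, from 16 and 17 nuclei (1.20 and 1.21 in groups of 25). These ratios are descriptions of nuclei within a library and were not tested.

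Counts of other cells' markers were set beside these differences. Leaving out the gate genes, the other 6 astrocyte markers summed to 315 and 533 CPM in *Foxp2* nuclei without *Rarb*, 2774 and 459 CPM with *Rarb* and 290 and 361 CPM in low-*Foxp2* nuclei. The value of 2774 came mostly from *Gpc5* (2416 CPM), and without *Gpc5* the sums were 254 and 279, 358 and 362, and 113 and 99.4 CPM, led by *Slc4a4* in the *Foxp2* nuclei. *Gja1* had no UMI in replicate 2 in any of the 3. The 8 microglia markers summed to 39.6 to 96.3 CPM across them. The 8 oligodendrocyte precursor markers, led by *Tnr* and *Lhfpl3*, summed to 1577 to 2209 CPM. *Tnr* alone was at 904 and 1103 CPM in *Foxp2* nuclei without *Rarb*, and at 764 and 846 CPM in glutamatergic nuclei. *C1ql1*, another of the 8, had no UMI in either *Foxp2* population in either library. Whether the sums reflect precursor RNA was not tested. The part of these cells in the receptor differences was not tested.

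**Figure D3:**
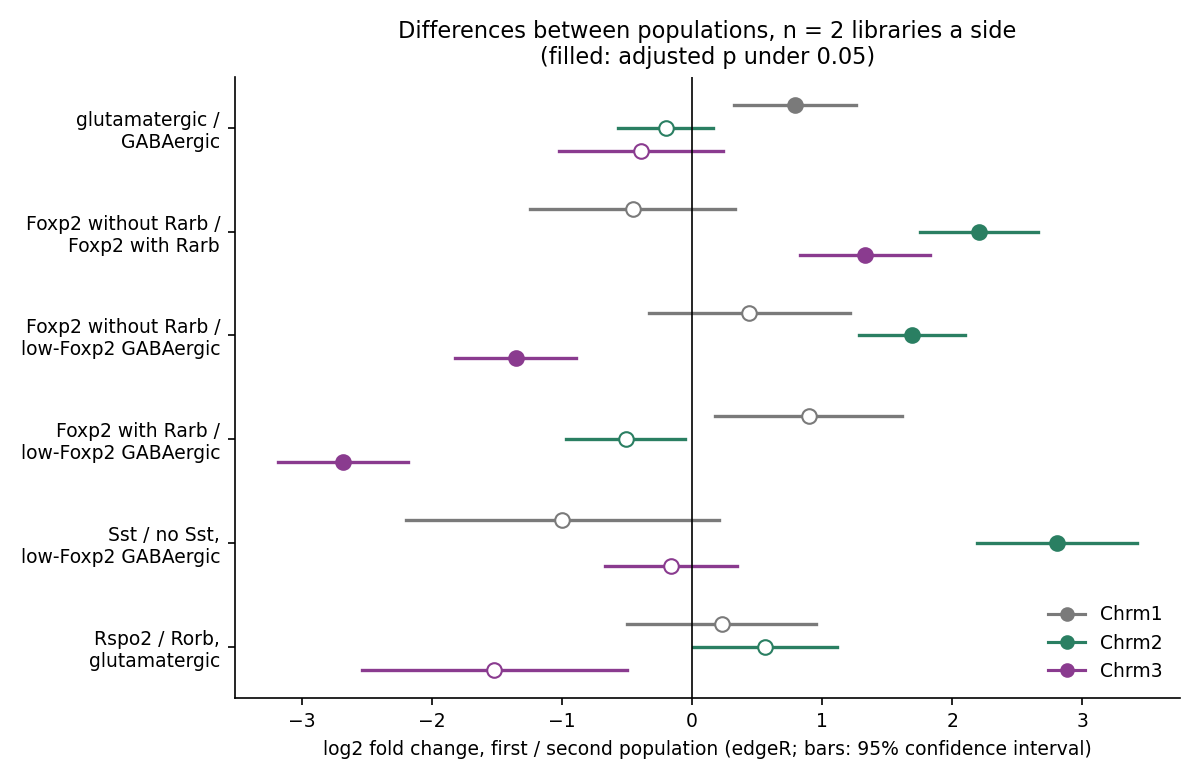
Log2 fold change between populations (horizontal axis) for each comparison, from edgeR with 2 libraries a side. Bars are 95% confidence intervals, and filled points have an adjusted p below 0.05. *Chrm2* is positive for *Foxp2* nuclei without *Rarb* in both of their comparisons (2.20 and 1.69) and for *Sst* nuclei (2.81), while *Chrm3* is negative for *Foxp2* nuclei with *Rarb* (-2.69).

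Within low-*Foxp2* GABAergic nuclei, *Chrm2* was concentrated in few nuclei. The top 10% of these nuclei held 94.9% and 84.8% of its UMIs, against 88.2% and 72.2% for *Chrm1*, which had at most 2 and 4 UMIs a nucleus. *Chrm2* was in 14.9% and 20.6% of these nuclei, and a gene in few nuclei has a high top share at any level. For *Chrm3*, found in most of them, the top share was 44.2% and 45.3% and the median 3 UMIs a nucleus in each library. Nuclei with at least 2 UMIs of *Sst*, the somatostatin gene of an interneuron class (25 and 40), had *Chrm2* at 490 and 215 CPM. Nuclei without *Sst* (198 and 258) had 34.6 and 60.3 CPM. *Chrm2* was 7.001-fold higher in *Sst* nuclei (log2 fold change 2.81 ± 0.30, adjusted p = 3.93e-07, edgeR), where 4.29% of 8397 genes were called (360), 1.83% higher in *Sst* nuclei, and 6.94% with the library as a block (583). *Chrm2* was nevertheless in only 8 of 25 and 8 of 40 *Sst* nuclei. The difference was 1.79 without replicate 2 and 3.75 without replicate 3, values with no test.

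*Chrm3* did not follow *Chrm2* in the *Sst* nuclei. It stood at 565 and 640 CPM with *Sst* and at 613 and 727 CPM without (log2 fold change -0.16 ± 0.25, interval -0.67 to 0.35, adjusted p = 0.931, edgeR). *Chrm1* was at 9.86 and 12.96 CPM with *Sst*, from 3 and 5 UMIs, the lowest level of any neuronal group of at least 20 nuclei a library. The replicate 2 value equals the limit that a count of 0 allows in those nuclei. Without *Sst* it was at 15.0 and 29.9 CPM (log2 fold change -0.997 ± 0.59, interval -2.20 to 0.21, adjusted p = 0.585, edgeR).

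The *Sst* nuclei with *Chrm2* were looked at one by one, after the values were seen. In replicate 2, 5 nuclei held 56, 26, 25, 25 and 14 of the 149 *Chrm2* UMIs, and in replicate 3, 2 nuclei held 37 and 29 of 83. Some of these nuclei had *Nos1*, the neuronal nitric oxide synthase that marks a long-range projecting kind of *Sst* neuron. Nuclei with at least 2 *Nos1* UMIs (6 and 5) had *Chrm2* at 868 and 1777 CPM, in 5 of 6 and 5 of 5. The remaining *Sst* nuclei (19 and 35) had it at 361 and 37.5 CPM, in 3 nuclei of each library, and the replicate 2 value came mostly from nuclei with 56 and 25 UMIs and 0 and 1 of *Nos1*. *Chrm3* was at 38.9 and 229 CPM in the *Nos1* nuclei and at 744 and 687 CPM in the others. *Nos1* nuclei without *Sst* (17 and 14) had *Chrm2* at 13.8 and 50.6 CPM. When nuclei with *Nos1* were left out on both sides, a choice made after seeing the data, the *Sst* difference in *Chrm2* was 1.80 on the log2 scale. It no longer passed (adjusted p = 0.110, edgeR). That fit had 19 *Sst* nuclei in replicate 2, under the minimum of 20 set for the planned tests. It therefore cannot show whether the call needed the *Nos1* nuclei.

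**Figure D4:**
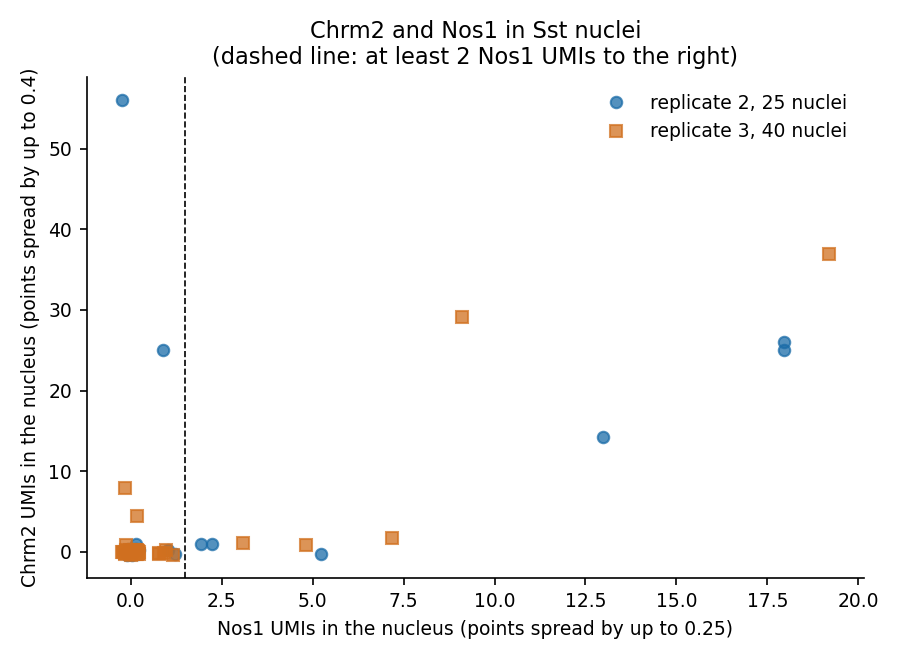
*Chrm2* UMIs (vertical axis) against *Nos1* UMIs (horizontal axis) in each *Sst* nucleus, 25 in replicate 2 (circles) and 40 in replicate 3 (squares); points are spread slightly so that they can be told apart. Most nuclei lie at 0 for both genes, and 5 of the 7 nuclei with over 10 *Chrm2* UMIs lie right of the dashed line, at 2 or more *Nos1* UMIs.

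Among glutamatergic nuclei, those with *Rspo2* and those with *Rorb*, genes that the study used as markers within the basal and lateral amygdala, were compared in 81 and 25 against 45 and 23 nuclei. *Chrm3* was at 54.7 and 193 CPM with *Rspo2* and at 297 and 355 CPM with *Rorb*, without overlap. The difference was -1.52 ± 0.47 on the log2 scale (interval -2.54 to -0.50) and did not pass over all genes (adjusted p = 0.138, edgeR). With the library as a block it passed (-1.73, adjusted p = 5.86e-12, edgeR). It also passed when genes of low counts were kept (-1.46, adjusted p = 4.19e-07, edgeR), while DESeq2 did not call it. With 2 libraries the block fit rests mostly on spread shared across genes, so its p-value does not measure how well the libraries agree. The difference was -0.91 without replicate 2 and -2.39 without replicate 3, values with no test. *Chrm2* was at 143 and 199 CPM with *Rspo2* against 116 and 110 CPM (0.56 ± 0.25, adjusted p = 0.440, edgeR), and *Chrm1* at 52.7 and 37.2 against 33.1 and 52.0 CPM (0.23 ± 0.33, adjusted p = 0.904, edgeR). Of the 3 members 0 were called by edgeR and by DESeq2 (2 had an unadjusted p below 0.05 in edgeR), where edgeR called 2.95% of 6809 genes (201). With the block 1 of 3 was called, where 8.37% of genes were (570).

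Over 19 disjoint groups of nuclei, of which 4 had fewer than 20 nuclei in a library, each gene had its own order. By mean, *Chrm1* was highest in groups of glutamatergic nuclei, at 39.7 to 49.0 CPM in the 5 with at least 20 nuclei a library. Neighbours in that order overlapped. In replicate 3, *Foxp2* nuclei with *Rarb* (45.3 CPM) exceeded some of these groups. Among them were glutamatergic nuclei with *Rspo2* (40.7 CPM) and without *Slc17a7* (42.2 CPM). *Chrm2* was highest in *Sst* nuclei, 352 ± 194 CPM (SD, n = 2), and *Foxp2* nuclei without *Rarb*, 292 ± 36.8 CPM, within the spread of the former. It followed in the 95 and 28 glutamatergic nuclei with *Rspo2*, with or without *Rorb*, at 157 ± 23.0 CPM. *Chrm3* was highest in glutamatergic nuclei without *Slc17a7*, 1096 ± 1007 CPM, where the libraries disagreed, and in *Vip* nuclei (11 and 8), where all nuclei had it and the level was 879 and 1300 CPM. The *Vip* nuclei had *Chrm2* at 29.0 and 0 CPM and the *Lamp5* nuclei (5 and 6) at 0 in both libraries. Of *Foxp2* nuclei with *Drd1* or *Drd2*, the dopamine receptor genes, there were too few for a test (6 and 10, 2 and 3).

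Outside neurons most levels were lower, with exceptions among microglia-like and oligodendrocyte precursor-like nuclei. Oligodendrocyte-like nuclei, named by at least 4 of 8 markers, had *Chrm1* in 1.21% and 1.504%, *Chrm2* in 4.05% and 2.76% and *Chrm3* in 7.69% and 4.76% of nuclei, at median depths of 1979 and 1991 UMIs. In CPM they had 4.79 and 6.14 of *Chrm1*, 22.4 and 26.6 of *Chrm2* and 35.1 and 50.2 of *Chrm3*. Free RNA gives UMIs in cells that lack a gene. The CPM of glutamatergic nuclei, of all GABAergic nuclei and of the 3 GABAergic populations divided by *Foxp2* and *Rarb* lay above these levels for all 3 genes, while *Chrm2* in *Nos1* nuclei without *Sst*, in *Vip* and in *Lamp5* nuclei did not in at least 1 library. Thinned to 3700 UMIs, 47 and 46 oligodendrocyte-like nuclei had *Chrm2* in 6.38% and 6.52%, against 10.3% and 12.4% of *Foxp2* nuclei with *Rarb*. The intervals of these shares overlapped in both libraries, and 200 and 353 shallower oligodendrocyte-like nuclei were left out. Astrocyte-like nuclei had *Chrm2* at 6.24 and 13.1 CPM, below the oligodendrocyte-like levels, and *Chrm3* at 45.8 and 38.3 CPM. Microglia-like nuclei (89 and 43), planned beside the oligodendrocyte-like nuclei as a background of free RNA, were an exception. They had *Chrm3* at 98.1 and 346.5 CPM, from 19 and 38 UMIs (21 of the 38 in 1 nucleus), not below the 86.5 and 109 CPM of *Foxp2* nuclei with *Rarb*. Their *Chrm1*, at 15.5 and 18.2 CPM from 3 and 2 UMIs, was near the level of low-*Foxp2* nuclei, and their *Chrm2* was at 36.1 and 0 CPM. Vascular-like and ependymal-like nuclei gave at most 3 UMIs of a member in a library. Oligodendrocyte precursor-like nuclei (183 and 190) had *Chrm1* at 20.4 and 31.4 CPM, *Chrm2* at 132 and 104 CPM and *Chrm3* at 148 and 226 CPM. Those with the precursor receptor gene *Pdgfra* and no *Snap25*, a neuronal gene (53 and 39), had *Chrm2* at 57.7 and 44.6 CPM. They had *Chrm3* at 57.7 and 35.7 CPM, and each value came from 4 to 9 UMIs a library. Their *Chrm2* lay above the oligodendrocyte-like levels in both libraries, and their *Chrm3* only in replicate 2. The other precursor-like nuclei held most of the receptor UMIs of the group, but were also most of its nuclei.

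**Figure D5:**
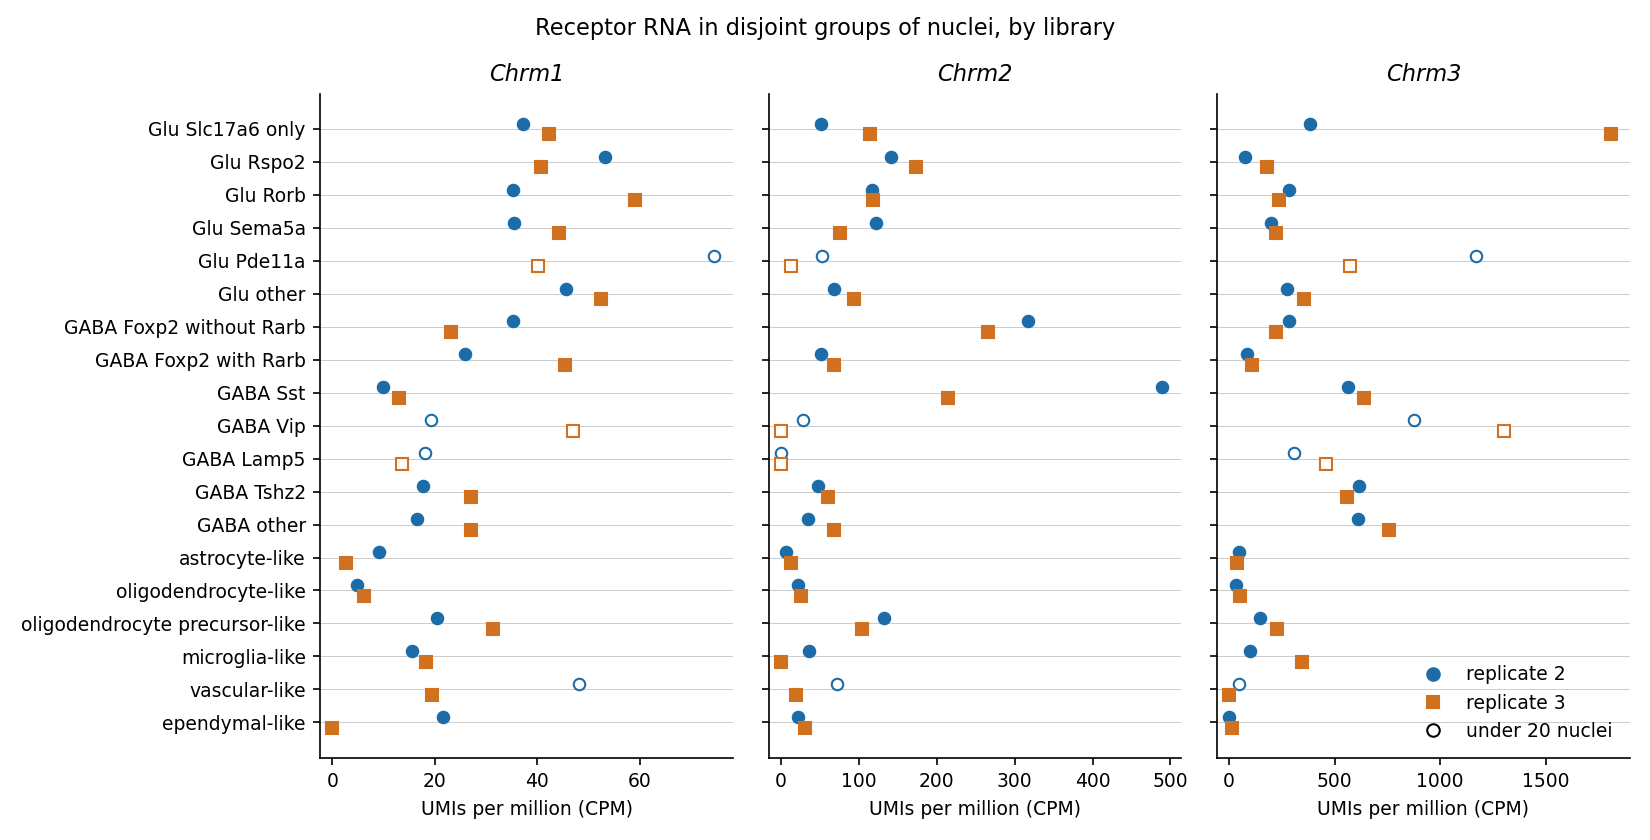
CPM of *Chrm1*, *Chrm2* and *Chrm3* (horizontal axes, linear) in 19 disjoint groups of nuclei, 6 glutamatergic (Glu), 7 GABAergic (GABA) and 6 non-neuronal; circles are replicate 2, squares replicate 3 and open symbols groups with fewer than 20 nuclei in that library. *Chrm2* peaks in *Sst* nuclei (490 and 215 CPM) and *Foxp2* nuclei without *Rarb* (318 and 266 CPM), and glutamatergic nuclei without *Slc17a7* reach 1808 CPM of *Chrm3* in replicate 3.

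The other genes of cholinergic signalling were taken from 7 lists holding 68 genes. Genes for acetylcholine synthesis and release (*Chat*, *Slc18a3*, *Slc5a7*) were near absent, with 14 and 7 UMIs in GABAergic and 1 and 1 in glutamatergic nuclei, and none of the 3 passed the filter in any comparison. Between glutamatergic and GABAergic nuclei the 3 esterase genes tested had a median log2 fold change of -0.12 and the 2 nicotinic receptor genes of -0.47, with no call.

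Genes of the Gq arm, which carries the signal of *Chrm1* and *Chrm3*, were called in 5 of 16 between glutamatergic and GABAergic nuclei (3 higher in glutamatergic; median log2 fold change -0.04, and -0.02 over all genes), where 16.4% of all genes tested were called. *Plcb4*, a phospholipase C, was at 22.3 and 34.7 CPM in glutamatergic and 201 and 184 CPM in GABAergic nuclei (log2 fold change -2.77 ± 0.24, adjusted p = 4.39e-06, edgeR). *Trpc5*, a cation channel opened downstream of Gq, was at 363 and 374 against 148 and 152 CPM. Of the Gi arm 5 of 14 were called, against the same 16.4%, 4 of them higher in glutamatergic nuclei, among them the adenylyl cyclase gene *Adcy1* (117 and 95.2 against 61.1 and 50.7 CPM) and *Kcnj9*, a potassium channel subunit opened by Gi (43.2 and 33.4 against 23.5 and 15.6 CPM).

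Between the *Foxp2* populations 5 of 47 listed genes were called, where 1.69% of all genes were. Of the 5, 4 were higher with *Rarb*, where *Chrm2* and *Chrm3* were lower. *Adcy5*, the main striatal adenylyl cyclase, was at 72.0 and 70.8 CPM without *Rarb* and 192 and 211 CPM with it (-1.49 ± 0.20, adjusted p = 0.00145, edgeR). *Itpr1*, the receptor for the second messenger of Gq, was at 173 and 171 against 303 and 333 CPM, and *Kcnq5*, an M-current channel, at 550 and 669 against 1213 and 1826 CPM. *Rgs9*, which shortens Gi signals in striatal neurons, was at 72.0 and 76.3 against 144 and 172 CPM.

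Against low-*Foxp2* nuclei, 18 of 47 listed genes were called for *Foxp2* nuclei without *Rarb* and 16 of 47 for those with it, where 10.3% and 11.3% of all genes were called. The Gi arm was called in 4 of 14 and 5 of 14 and the Gq arm in 7 of 16 in both. In *Foxp2* nuclei without *Rarb*, where *Chrm2* was high, the Gi-gated channel genes *Kcnj6* (382 and 347 against 152 and 146 CPM; 1.31 ± 0.19, adjusted p = 0.000252, edgeR) and *Kcnj3* (584 and 580 against 267 and 344 CPM) were higher too. *Rgs6*, a regulator that ends Gi signals, was at 710 and 582 against 113 and 135 CPM (2.38 ± 0.22, adjusted p = 3.90e-06, edgeR). *Kcnj6* and *Rgs6* were also higher in *Foxp2* nuclei with *Rarb*, at 336 and 256 CPM and at 469 and 464 CPM, where *Chrm2* was not. Of the Gq arm, *Trpc4* (22.1 and 45.3 against 203 and 176 CPM) and *Trpc5* (89.7 and 74.7 against 204 and 226 CPM) were lower in *Foxp2* nuclei without *Rarb*, as was *Chrm3*.

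In *Sst* nuclei 8 of 46 listed genes were called, 6 of them lower, where 4.29% of all genes were called. *Kcnq5* was at 375 and 210 CPM against 1406 and 2298 CPM (-2.72 ± 0.32, adjusted p = 2.10e-06, edgeR), and *Kcnj3* at 148 and 156 against 292 and 398 CPM. *Prkca* was at 266 and 174 against 708 and 715 CPM. Between *Rspo2* and *Rorb* nuclei 5 of 38 were called, all lower with *Rspo2*, where 2.95% of all genes were called. They included *Adcy8* (41.4 and 57.6 against 170 and 220 CPM).

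Genes whose levels followed a member most closely were ranked over the 15 groups of at least 20 nuclei a library, by Pearson's r of log2(CPM + 10). The groups share libraries and differ in depth, so these values are descriptions. For *Chrm1* they were *Pgm2l1* (r = 0.962), *Nell2* (0.957) and *Rasgef1a* (0.9496). *Chrm2* had looser neighbours, *Ptprr* (0.876), *A330008L17Rik* (0.850) and *Fam78b* (0.844), and *Chrm3* was closest to *Ube3a* (0.920), *Vwa5b2* (0.910) and *Stau2* (0.907). The 3 members correlated with each other at 0.497 to 0.525.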

How the data were processed

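Nuclei of adult BLA were profiled by 10x Genomics single-nucleus RNA-seq in 3 libraries. The deposited matrices hold UMI counts per gene and barcode, which the authors made with Cell Ranger 7.0.1 on a 10x Genomics mm10 mouse reference and left unnormalised. Libraries 2 and 3 had 3792 and 4588 barcodes with 24354374 and 33049068 UMIs; they shared 7 barcode sequences. Replicate 1 (819 barcodes, 49 gated nuclei) entered 1 alternative.

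Counts were summed per population and library and tested with edgeR 4.0.16 (quasi-likelihood, TMM, filterByExpr, R 4.3.3), n = 2 libraries a side, after the genes used to gate were removed. A call is an adjusted p below 0.05. Standard errors of edgeR fold changes were derived from the log2 fold change and its F statistic, and the 95% confidence intervals from these errors. The 3 GABAergic *Foxp2* populations shared a fit. Sums of a library come from the same nuclei pool, and their deviations correlated at 0.138 to 0.268 within pairs of populations, so a fit with the library as a block was also made. Alternatives were DESeq2 1.42.0, its size factors, no filter on low counts, leaving out a library, 3 barcode filters of the study's methods (detected genes, mitochondrial and hemoglobin shares, 20 and 76 barcodes removed; its ribosomal filter and doubletFinder were not applied), Scrublet doublets removed (115 and 168), at least 4 transmitter UMIs and no glial limit; doublets were otherwise kept. Shares have exact Clopper-Pearson 95% intervals; these and the limits for counts of 0 (3 counts) cover counting error only. Thinning to 3700 UMIs left out shallower nuclei (28 and 14 glutamatergic, 51 and 76 GABAergic).

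All 5 members are named in each comparison where they could be measured, at most 4 called genes per list with the smallest p, and the 3 genes most like each member. Members and lists were chosen with earlier results of these data known. The tests were also run on simulated counts, drawn independently for each sum. Such counts hold no shared deviation of a library, so they cannot check the fits for it. Gene positions are from GENCODE vM21, promoters from RefSeq. Values of some listed genes are not reported here.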

Additional observations from a re-analysis of the deposited data

Results flagged for a closer look

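The 42 glutamatergic nuclei of replicate 1, a library outside the comparisons above, held receptor RNA above the limit that a count of 0 allows, which is 8.89 CPM there. *Chrm1* stood at 50.4 CPM, from 17 UMIs, beside 45.2 and 48.2 CPM in the other libraries. *Chrm2* was at 38.5 CPM, from 13 UMIs, below the 102 and 110 CPM of the others. *Chrm3* was at 554 CPM, above their 220 and 408 CPM, and 139 of its 187 UMIs lay in 1 nucleus. The 7 GABAergic nuclei of that library gave 4, 4 and 10 UMIs of the 3 genes. There *Chrm1* was at 72.0 CPM, above the glutamatergic nuclei of that library, opposite to the other libraries.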

How the results depend on the processing

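Under alternatives, 183 values of 18 member log2 fold changes were computed; 4 lost and 3 gained a call. The *Chrm1* call between glutamatergic and GABAergic nuclei was lost with DESeq2 (0.83), with replicate 1 added (0.74) and without the glial limit (0.74). *Chrm1* in *Foxp2* nuclei with *Rarb* against low-*Foxp2* nuclei passed without the filter on low counts (0.89), and *Chrm3* between *Rspo2* and *Rorb* nuclei passed without that filter (-1.46) and with the replicate block (-1.73). The block changed no other call of a member. Without *Nos1* nuclei, chosen after seeing the data, *Chrm2* in *Sst* nuclei no longer passed (1.80) and *Chrm3* turned from -0.16 to 0.062, passing in neither; 231 genes were then called. The causes were not tested.

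Genes called with the replicate block were 3207 for glutamatergic against GABAergic nuclei, 366 for *Foxp2* without against with *Rarb*, 1658 for *Foxp2* with *Rarb* against low *Foxp2*, 583 for *Sst* and 570 for *Rspo2*. DESeq2 called 624 and 658 genes for *Foxp2* nuclei without and with *Rarb* against low *Foxp2*, 166 for *Sst* and 119 for *Rspo2*. At least 4 transmitter UMIs gave 72 between the *Foxp2* populations and 498 and 669 against low *Foxp2*, and left too few *Rspo2* and *Rorb* nuclei to test. No filter gave 273 between the *Foxp2* populations and 389 for *Rspo2*, no glial limit 320 for *Rspo2*, and replicate 1 added 66 for glutamatergic against GABAergic.

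Leaving out a library gave 1.67 to 1.69 for *Chrm2* in *Foxp2* nuclei without *Rarb* against low *Foxp2*. With *Rarb* it gave 0.69 to 0.82 for *Chrm1* and -2.76 to -2.66 for *Chrm3*, and in *Sst* nuclei -1.13 to -0.53 for *Chrm1*. Differences that had not passed changed sign in 4 cases: *Chrm1* between the *Foxp2* populations (-0.91 to 0.41), without *Rarb* against low *Foxp2* (-0.096 to 1.10) and for *Rspo2* (-0.50 to 0.64), and *Chrm3* between the classes (-0.99 to 0.013). Such values have no test, since 1 library a side is left.

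The shares below were lower after thinning and with a minimum of 2 UMIs than with 1. The mean shares of glutamatergic nuclei with *Chrm1*, *Chrm2* and *Chrm3* were 16.7%, 22.4% and 39.7% after thinning and 17.7%, 28.6% and 41.1% at 2 UMIs or more. Those of GABAergic nuclei were 7.76%, 19.8% and 46.3% after thinning and 4.08%, 16.1% and 42.4% at 2 UMIs or more.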
